A study of Mus musculus with 17 samples.

Results

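The 5 genes described here are 2 interferon regulatory factors, Irf1 and Irf7, and 3 genes induced by interferons, Sp100, Gbp2b and Ifitm3. They are 5 of the 988 genes of a targeted mouse immuno-oncology panel and were taken by symbol. They were chosen by values of these same samples: Irf7 and Sp100 were already known to be low in preneoplastic Kit-W/sh colon, and the change of several of the genes between the stages was known too. The genotype difference in preneoplastic colon, the stage differences and their interaction are therefore given for these genes as descriptions without a test. The genotype difference in tumors is the comparison in which they were tested.

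Transcripts were counted in colon of mice that all received the colon carcinogen azoxymethane by intraperitoneal injection. Kit-B6 denotes C57BL/6 mice, while Kit-W/sh mice are of the W-sash strain, whose mast cell deficiency comes from a chromosomal inversion near Kit that misregulates the gene. Besides mast cells, other cells that depend on Kit can be affected by this allele. Preneoplastic colon came from mice of postnatal week 14, killed 3 weeks after a course of 3 injections over 3 weeks, with 3 Kit-B6 and 2 Kit-W/sh samples. Tumors came from mice of postnatal week 32, killed 18 weeks after a course of 6 injections over 6 weeks, with 6 samples of each genotype. Stage, age, injections and tissue changed together and cannot be told apart.

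Interferons are secreted proteins that alert cells to infection and damage. Type I interferons act through the Ifnar receptor and a complex that contains Irf9 and binds interferon-stimulated response elements, and interferon gamma acts through the Ifngr receptor and leads to binding at gamma-activated sites. Irf1 is a transcription factor that is induced strongly by interferon gamma and drives genes of antigen presentation. Irf7 is induced by type I interferon and, once activated, drives the type I interferon genes themselves, so that it amplifies the response. In the intestine both kinds of interferon act on epithelium and on the immune cells of the lamina propria.

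The promoter windows of 4 of the genes are shown for the 2 kinds of element that they hold or lack. The windows are RefSeq sequence of build GRCm38.p6, from 250 bases before to 50 bases after the annotated start, and all 5 genes matched by symbol, with 7 windows in all. They are the windows of Irf1 (chr11:53769764-53770063, plus strand), Irf7 (chr7:141266375-141266674, minus strand), Gbp2b (chr3:142594597-142594896, plus strand) and Ifitm3 (chr7:141010695-141010994, minus strand). Capitals mark matches, on either strand, to the core of the interferon-stimulated response element, GAAANNGAAA, or of the gamma-activated site, TTCNNNGAA.
Irf1: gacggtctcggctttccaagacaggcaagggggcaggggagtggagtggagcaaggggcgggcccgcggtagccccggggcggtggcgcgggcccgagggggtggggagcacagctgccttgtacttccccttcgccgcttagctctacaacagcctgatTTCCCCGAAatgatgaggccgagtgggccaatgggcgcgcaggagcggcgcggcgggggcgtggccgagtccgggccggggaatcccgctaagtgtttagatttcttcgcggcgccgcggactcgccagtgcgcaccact
Irf7: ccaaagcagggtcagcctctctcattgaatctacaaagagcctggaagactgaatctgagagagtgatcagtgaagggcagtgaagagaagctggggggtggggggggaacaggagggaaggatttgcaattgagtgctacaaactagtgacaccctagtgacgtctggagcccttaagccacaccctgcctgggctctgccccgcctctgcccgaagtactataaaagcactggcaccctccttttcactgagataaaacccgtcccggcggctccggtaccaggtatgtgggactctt
Gbp2b: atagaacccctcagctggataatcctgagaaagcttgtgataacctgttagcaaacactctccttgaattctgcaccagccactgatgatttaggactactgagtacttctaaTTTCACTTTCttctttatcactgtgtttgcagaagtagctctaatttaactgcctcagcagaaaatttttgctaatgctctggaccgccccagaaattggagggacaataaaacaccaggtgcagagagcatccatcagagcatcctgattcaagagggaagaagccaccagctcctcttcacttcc
Ifitm3: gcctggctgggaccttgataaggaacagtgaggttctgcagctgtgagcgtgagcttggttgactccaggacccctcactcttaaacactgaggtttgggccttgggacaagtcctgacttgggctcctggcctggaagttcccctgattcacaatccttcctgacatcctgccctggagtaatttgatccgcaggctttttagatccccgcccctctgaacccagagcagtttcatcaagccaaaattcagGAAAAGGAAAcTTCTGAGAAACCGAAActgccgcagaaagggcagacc

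The Irf1 window held 1 gamma-activated site core, beginning 90 bases before the start, and no response element core. The Ifitm3 window held 2 response element cores, beginning at bases 3 and 20 after the start, and a gamma-activated site core at base 14 that overlapped the second of them. The Gbp2b window held 1 response element core on the minus strand, 137 bases before the start. Neither core was found in the Irf7 window, in the 2 overlapping Sp100 windows on chromosome 1 or in the second Irf1 window. Of 32851 RefSeq windows, 3.44% held the response element core and 8.3% the gamma-activated site core, and among 945 windows of panel genes the shares were 5.5% and 8.47%. A match is a description of these letters, and a window without one says nothing of elements elsewhere or with other letters.

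Library totals ran from 616009 to 703549 counts in Kit-B6 preneoplastic colon, from 621141 to 815973 in Kit-W/sh preneoplastic colon, from 616554 to 1399902 in Kit-B6 tumors and from 1049408 to 1262171 in Kit-W/sh tumors. Levels are CPM (counts scaled to a common library size) after TMM scaling of the 17 libraries, and they compare libraries for 1 gene, not genes with each other, since each gene is read through its own amplicon. Kit, whose transcript level does not test the allele, was at 264, 340 and 521 CPM in Kit-B6 preneoplastic colon and at 125 and 113 CPM in Kit-W/sh. In tumors Kit ran from 94.2 to 476 CPM in Kit-B6 and from 49.1 to 258 CPM in Kit-W/sh, so the groups overlapped. Cpa3, a mast cell protease, reached 459.8 CPM in 1 library, that labelled Kit-W/sh tumor 2, and between 0 and 9.86 CPM in the other 5 Kit-W/sh tumors, so that library goes against its label. Kit-B6 tumor 4 stood apart by its epithelial genes (summed level 83096 CPM, against 40275 to 48939 in the other Kit-B6 tumors), and the genotype values in tumors and the stage values of the 5 genes are also given without these 2 libraries.

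**Figure D1:**
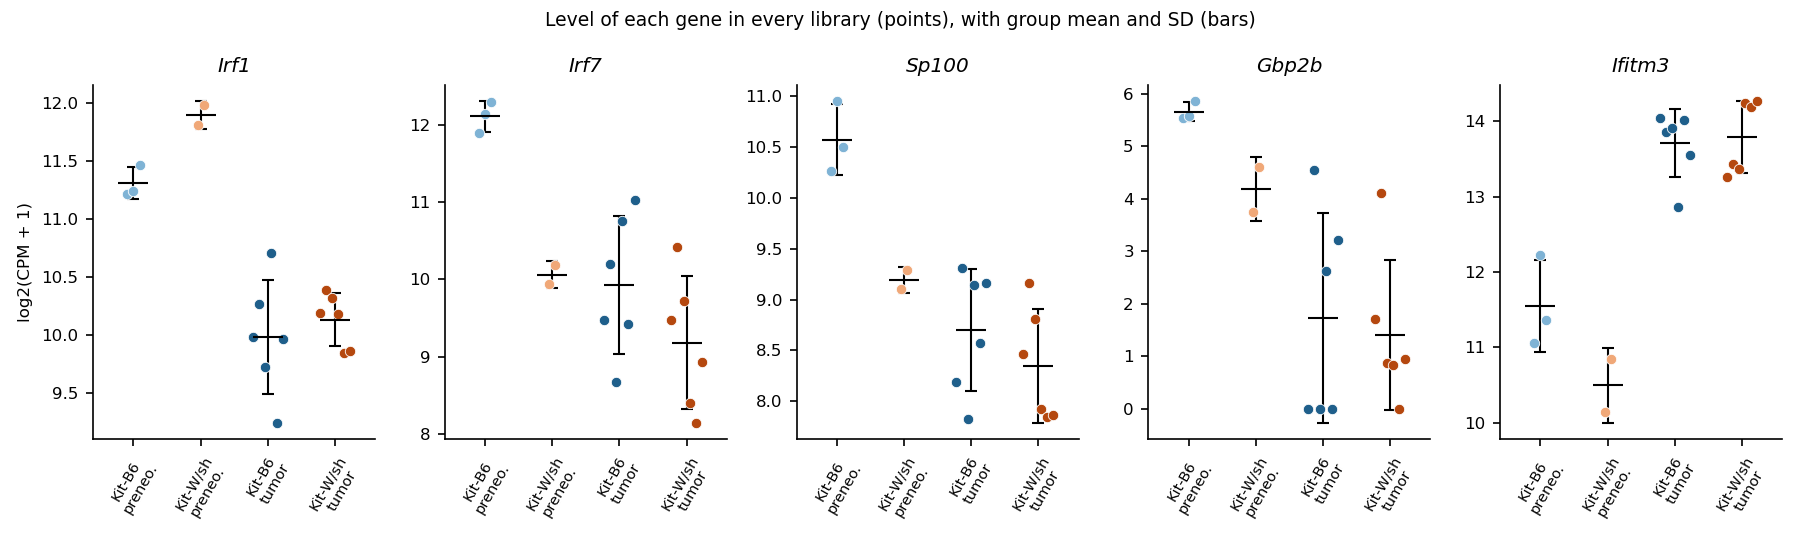
Level of each of the 5 genes as log2(CPM + 1) in all 17 libraries, by genotype and stage (preneo., preneoplastic colon); points are libraries, horizontal bars group means and error bars SD. Irf7, Sp100 and Gbp2b are highest in the 3 Kit-B6 preneoplastic libraries, Irf1 in the 2 Kit-W/sh preneoplastic libraries, and Ifitm3 in the tumors of both genotypes.

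Irf7 was at 3802, 4495 and 5021 CPM in Kit-B6 preneoplastic colon and at 983 and 1160 CPM in Kit-W/sh preneoplastic colon. The groups lay far apart, with means of 4440 ± 611 (SD, n = 3) and 1072 ± 125 CPM (SD, n = 2) and a fitted log2 difference (Kit-W/sh minus Kit-B6) of -2.07 ± 0.20 (SE). In tumors Irf7 varied widely within each genotype, from 408 over a median of 942 to 2089 CPM in Kit-B6 and from 283 over a median of 598 to 1372 CPM in Kit-W/sh. Every tumor was below every Kit-B6 preneoplastic sample, and the tumors of both genotypes overlapped the Kit-W/sh preneoplastic level. In the order of mean log2 levels, Kit-B6 preneoplastic colon stood first, beyond the spread, and Kit-W/sh preneoplastic colon, Kit-B6 tumors (1131 ± 658 CPM, SD, n = 6) and Kit-W/sh tumors (672 ± 404 CPM, SD, n = 6) did not differ from their neighbours beyond it.

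Irf1 had the opposite genotype difference in preneoplastic colon. It was at 2385, 2432 and 2838 CPM in Kit-B6 and at 3606 and 4065 CPM in Kit-W/sh, with no overlap and a log2 difference of 0.56 ± 0.16 (SE). In tumors it was lower in both genotypes, from 607 over a median of 1009 to 1680 CPM in Kit-B6 and from 922 over a median of 1169 to 1345 CPM in Kit-W/sh. The order of group means was Kit-W/sh preneoplastic colon (3836 ± 324 CPM, SD, n = 2), Kit-B6 preneoplastic colon (2552 ± 249 CPM, SD, n = 3) and then the tumors of Kit-W/sh (1136 ± 175 CPM, SD, n = 6) and Kit-B6 (1064 ± 366 CPM, SD, n = 6). The last neighbours in this order did not differ beyond their spread.

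The ratio of the 2 factors within a library does not depend on how libraries are scaled. As log2 of Irf1 counts over Irf7 counts, it was -0.67, -0.89 and -0.82 in Kit-B6 preneoplastic colon and 1.87 and 1.81 in Kit-W/sh preneoplastic colon. Irf7 thus had more counts than Irf1 in each Kit-B6 preneoplastic library and fewer in both Kit-W/sh ones, although the size of each ratio also holds the efficiencies of the amplicons. In tumors the ratio ran from -1.06 to 1.05 in Kit-B6 and from -0.03 to 1.79 in Kit-W/sh, and these ranges overlapped.

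Sp100, a component of PML nuclear bodies that interferons induce, had the same order of mean log2 levels as Irf7. It was at 1225, 1982 and 1446 CPM in Kit-B6 preneoplastic colon and at 549.6 and 623 CPM in Kit-W/sh. The groups did not overlap, and the log2 difference was -1.43 ± 0.24 (SE). In tumors Sp100 ran from 226 over a median of 472 to 634 CPM in Kit-B6 and from 229 over a median of 298 to 573 CPM in Kit-W/sh, below every Kit-B6 preneoplastic sample. Kit-W/sh preneoplastic colon (586 ± 52.2 CPM, SD, n = 2), Kit-B6 tumors (444 ± 168 CPM, SD, n = 6) and Kit-W/sh tumors (346 ± 141 CPM, SD, n = 6) did not differ from their neighbours in the order beyond the spread. Sp100 has near-identical repeat copies in the mouse genome, whose reads the counting could assign to it.

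Gbp2b, a guanylate-binding protein that attacks the vacuoles of intracellular pathogens, had the fewest counts. It had 25, 26 and 37 counts in the Kit-B6 preneoplastic libraries and 7 and 17 in the Kit-W/sh ones, or 45.2, 46.7 and 57.4 CPM against 12.5 and 23.4 CPM, without overlap. The log2 difference was -1.47 ± 0.46 (SE). In Kit-B6 tumors it had 0, 16, 0, 5, 0 and 7 counts, and in Kit-W/sh tumors 3, 21, 1, 1, 0 and 1. The highest of the last set is the library labelled Kit-W/sh tumor 2, and most tumors were at or near the floor of 3 counts, which is 2.14 to 4.87 CPM. Its reads may be shared with near-identical relatives in the Gbp cluster, of which the panel reads Gbp2.

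Ifitm3, a membrane protein that hinders virus entry, moved apart from the others. In Kit-B6 preneoplastic colon it was at 2125, 4802 and 2633 CPM, and in Kit-W/sh preneoplastic colon at 1133 and 1840 CPM. These groups did not overlap, and the log2 difference of -1.12 ± 0.41 (SE) had the sign of Irf7 and Sp100. In tumors, however, Ifitm3 was at 7414 to 16941 CPM in Kit-B6 (median 15100) and at 9840 to 19669 CPM in Kit-W/sh (median 14824), above every preneoplastic library. Its order was thus Kit-W/sh tumors (14835 ± 4796 CPM, SD, n = 6) and Kit-B6 tumors (13855 ± 3598 CPM, SD, n = 6), which did not differ beyond their spread, then Kit-B6 (3187 ± 1422 CPM, SD, n = 3) and Kit-W/sh (1486 ± 499.7 CPM, SD, n = 2) preneoplastic colon. Ifitm3 lies in a family of similar genes, and reads of relatives may be counted with it.

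All 5 genes had groups that did not overlap between the genotypes in preneoplastic colon, where 30% of the 777 genes tested did so, and nothing is read from that count because this comparison was in view when the genes were chosen. Of the same 777 genes, 0.129% (1 gene, lower in Kit-W/sh) passed an adjusted p of 0.05 by edgeR's quasi-likelihood test with Benjamini-Hochberg adjustment. That gene was Irf7 itself, and its call is not used as a test, because it was chosen with this comparison in view. Gbp2b passed the filter on low counts there through the group in which it was high. In bulk tissue, fewer cells that express a gene and less RNA of it per cell cannot be told apart. B cell genes (9 of 12 listed measured) summed to 170.1, 3138 and 1085 CPM in the Kit-B6 preneoplastic samples 1, 2 and 3 and to 346 and 162 CPM in the Kit-W/sh samples. T cell genes (11 of 11) summed to 669.6 to 1884 CPM against 780.2 to 917 CPM, and cytotoxic lymphocyte genes (8 of 9) to 296 to 431 CPM against 366 to 587 CPM. The part of these cells in the differences was not tested. Kit-B6 sample 1 had the lowest B and T cell sums of its group, at 170.1 and 669.6 CPM. It also had that group's lowest level of all 5 genes, with Irf7 at 3802, Sp100 at 1225, Gbp2b at 45.2, Ifitm3 at 2125 and Irf1 at 2385 CPM. Irf1 was there below both Kit-W/sh samples and the other genes above both. Kit-B6 sample 2 had the highest B and T cell sums, and with them the highest Sp100 and Ifitm3, while Irf7, Irf1 and Gbp2b were highest in sample 3. Genes of plasmacytoid dendritic cells, which rely on Irf7 to make type I interferon, summed to 1366 to 4680 CPM against 997 to 1130 CPM, but only 3 of 8 were measured, and Bst2 and Tlr7 among them also belong to the interferon pathway lists. Bst2, itself induced by interferon, made up nearly all of this sum, at 1330 to 4592 CPM in Kit-B6 and 972 to 1106 CPM in Kit-W/sh. No measured gene of these 4 lists was at 0 in all libraries of a group.

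The rest of the interferon pathway was counted on 12 lists of 131 genes, of which the panel measured 67. These lists were chosen with earlier results of these data known, so a sign shared within a list is only a description. In preneoplastic colon 0 of the 58 tested passed edgeR's adjusted p of 0.05, while DESeq2 called 7, each lower in Kit-W/sh. DESeq2 also called more genes than edgeR over the whole panel, as given with the other settings below. The 7 are therefore not read as a result about the pathway. By edgeR, 17 of the 58 had an unadjusted p under 0.05, and so had 83 of the 777 genes tested over the panel. Relative to a median log2 difference of -0.01 over all genes tested, the 12 antiviral effectors tested all had negative values. Their median was -1.23, with values from -3.02 (Oas2) to -0.08 (Ifi27), and most of them are of the oligoadenylate synthetase family. They included the oligoadenylate synthetases Oas2 (-3.02 ± 0.63, SE, edgeR adjusted p = 0.2535), Oas3 (-2.72 ± 0.46, adjusted p = 0.2284), Oas1b (-1.41 ± 0.36, adjusted p = 0.2773) and Oasl1 (-1.27 ± 0.34, adjusted p = 0.3008), which make the messenger that activates RNase L. Of 12 genes of MHC class I and peptide loading, 9 had negative values with a median of -0.17, among them B2m, the class I light chain (-0.85 ± 0.19, adjusted p = 0.2535), and H2-T24 (-2.46 ± 0.64, adjusted p = 0.2885).

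Other lists had the sign of Irf1. All 5 tested genes of chemokines and checkpoint molecules that interferon gamma induces had positive values in Kit-W/sh preneoplastic colon, with a median of 0.76, as did 3 of 3 inhibitors of interferon signalling with a median of 0.71, and none passed the test. The 2 receptors had a median of 0.12 and the 6 other IRF factors one of -0.06. Pml, the scaffold of the bodies that hold Sp100, was at -0.79 ± 0.24 (SE, edgeR adjusted p = 0.3585), and Gbp2 at 0.98 ± 0.53 (SE, edgeR adjusted p = 0.5313), opposite in sign to Gbp2b. Of the ligands, the panel measured 2 of the 9 listed of types I and III, and Ifng. Ifna2 had 0 counts in all 17 libraries, which allows up to 1.52 CPM over the Kit-B6 and 2.09 CPM over the Kit-W/sh preneoplastic group, and Ifnb1 had 2 counts in Kit-B6 preneoplastic colon, 1 in Kit-W/sh tumors and 0 in the other groups. Ifng had 5 counts over the 3 Kit-B6 and 11 over the 2 Kit-W/sh preneoplastic libraries, and 7 and 10 over the Kit-B6 and Kit-W/sh tumors, too few for a test.

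**Figure D2:**
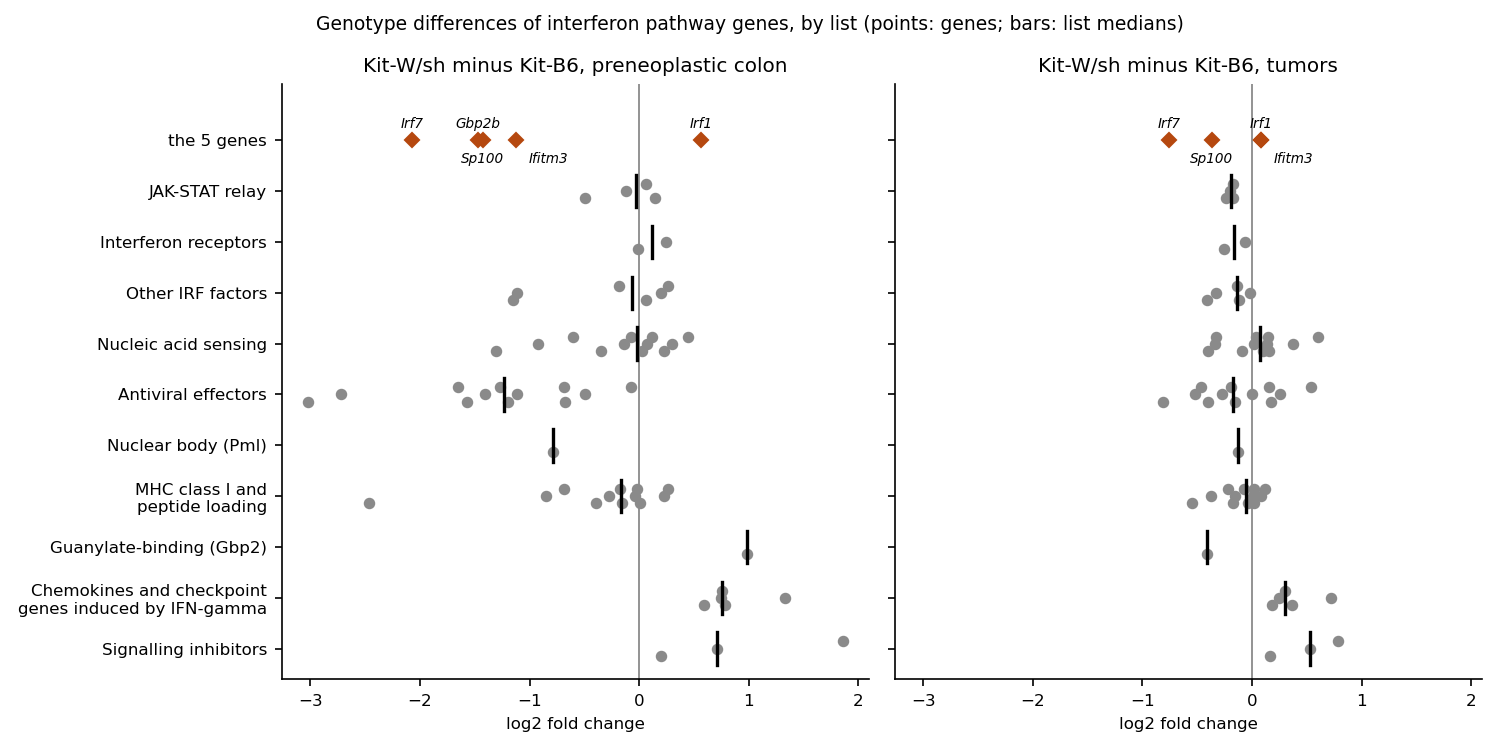
Log2 fold change of Kit-W/sh against Kit-B6 in preneoplastic colon (left) and tumors (right); grey points are tested pathway genes by list, black bars list medians, and diamonds the 5 genes (Gbp2b was not tested in tumors). In preneoplastic colon the antiviral effectors lie at negative values (median -1.23) with Irf7, Sp100, Gbp2b and Ifitm3, and Irf1 lies with the positive chemokine list (median 0.76); in tumors these lists have medians of -0.175 and 0.305.

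In tumors no difference between the genotypes was called in any of the 4 genes tested. The log2 difference (Kit-W/sh minus Kit-B6) of Irf7 was -0.76 ± 0.45 (SE, edgeR adjusted p = 0.4629). That of Sp100 was -0.37 ± 0.32 (SE, edgeR adjusted p = 0.6207), that of Irf1 0.08 ± 0.21 (SE, edgeR adjusted p = 0.8966) and that of Ifitm3 0.08 ± 0.24 (SE, edgeR adjusted p = 0.9068). Gbp2b did not pass the filter on low counts, and with the filter removed it was at -0.65 ± 1.22 (SE, edgeR adjusted p = 0.8441). The levels of the genotypes overlapped for all 5 genes. Over the whole panel, 0% of the 799 genes tested were called by edgeR (109 had an unadjusted p under 0.05, and DESeq2 called 27), and the levels did not overlap for 0.626% of them. Of the 57 pathway genes tested, 0 were called and 2 had an unadjusted p under 0.05, Mb21d1, which encodes the DNA sensor cGAS (0.60 ± 0.25, SE, edgeR adjusted p = 0.3099), and the feedback inhibitor Socs3 (0.78 ± 0.35, SE, edgeR adjusted p = 0.3627).

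Without Kit-B6 tumor 4 and the library labelled Kit-W/sh tumor 2, Irf7 was at 1013 ± 660.4 CPM (SD, n = 5) in Kit-B6 tumors and 531 ± 239.5 CPM (SD, n = 5) in Kit-W/sh tumors. Its log2 difference was then -0.95 ± 0.44 (SE, edgeR adjusted p = 0.2637) and that of Sp100 -0.50 ± 0.32 (SE, edgeR adjusted p = 0.4392), while Irf1 was at 0.20 ± 0.19 (adjusted p = 0.6318) and Ifitm3 at 0.02 ± 0.22 (adjusted p = 0.9673). These libraries also changed the count over the panel, since 15 genes were called without them, none of them a pathway gene or one of the 5. Gbp2b ran from 0 to 2.27 CPM in the remaining Kit-W/sh tumors, and from 0 to 22.5 CPM in the remaining Kit-B6 tumors. Neutrophil genes (3 of 8 listed measured) summed to 62.1 to 258 CPM in Kit-B6 tumors and to 272 to 760.5 CPM in Kit-W/sh tumors, and their part in the tumor values was not tested.

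**Figure D3:**
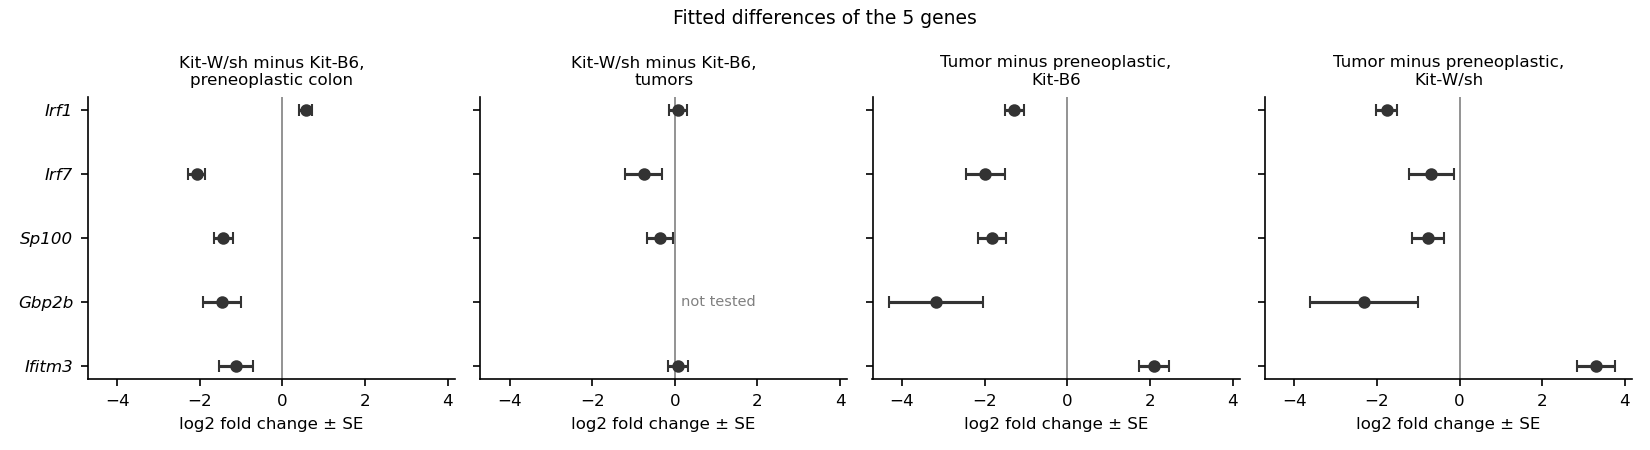
Fitted log2 fold changes with SE of the 5 genes in the 2 genotype comparisons and the 2 stage comparisons. The genotype values run from -2.07 (Irf7) to 0.56 (Irf1) in preneoplastic colon and from -0.76 (Irf7) to 0.08 (Irf1, Ifitm3) in tumors, and Ifitm3 alone has positive stage values (2.10 in Kit-B6, 3.31 in Kit-W/sh).

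Between the stages, tumor minus preneoplastic colon, the 5 genes had these log2 differences in Kit-B6. Irf7 was at -1.98 ± 0.47 (SE), Sp100 at -1.82 ± 0.33, Irf1 at -1.28 ± 0.22 and Gbp2b at -3.17 ± 1.14, all lower in tumors, and Ifitm3 was at 2.10 ± 0.36, higher in tumors. Of the 28 Gbp2b counts in Kit-B6 tumors, 16 came from tumor 2, and without that library its difference was -4.30. None of the 5 overlapped between the stages in Kit-B6, against 29.2% of the 869 genes tested without overlap and 41.1% called by edgeR (193 higher, 164 lower). Nothing is read from such counts in either genotype, because stage changes of several of the genes were known when they were chosen. In Kit-W/sh, where 39.7% were called (182 higher, 163 lower) and 58.6% did not overlap, the groups were apart for Irf1 (-1.77 ± 0.25, SE) and Ifitm3 (3.31 ± 0.46, SE). Irf7 (-0.69 ± 0.55, SE), Sp100 (-0.77 ± 0.38, SE) and Gbp2b (-2.31 ± 1.32, SE) overlapped there, and 21 of the 27 Gbp2b counts of these tumors came from the library labelled Kit-W/sh tumor 2. Gbp2b passed the filter of this fit, too, through the group in which it was high.

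The stage values depend on the scaling. Scaling by library totals gave 273 higher and 101 lower genes in Kit-B6 and 253 and 108 in Kit-W/sh, and scaling by the reference genes Tfrc and Rpl13a 210 and 71 and 271 and 57. The median of all genes in Kit-W/sh moved from 0.08 to 0.34 and 0.56, and in Kit-B6 from -0.003 to 0.24 and 0.23. Under reference scaling Irf7 was at -0.17 ± 0.64 (SE) and Sp100 at -0.26 ± 0.50 in Kit-W/sh, and no sign changed for any of the 5 genes in either genotype under these scalings. Without Kit-B6 tumor 4 and the library labelled Kit-W/sh tumor 2, the Kit-W/sh values were -1.02 ± 0.49 (SE) for Irf7, -0.97 ± 0.36 for Sp100, -4.05 ± 1.28 for Gbp2b, -1.82 ± 0.20 for Irf1 and 3.38 ± 0.42 for Ifitm3. The Kit-B6 values were then -2.14 ± 0.43 (SE) for Irf7, -1.90 ± 0.32 for Sp100, -3.17 ± 1.01 for Gbp2b, -1.45 ± 0.19 for Irf1 and 2.24 ± 0.33 for Ifitm3.

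The genotype by stage term, the genotype difference in tumors minus that in preneoplastic colon, was 1.30 ± 0.76 (SE) for Irf7, 1.05 ± 0.54 for Sp100, 1.20 ± 0.50 for Ifitm3, 0.85 ± 1.88 for Gbp2b and -0.49 ± 0.35 for Irf1. For Gbp2b it was -0.88 without the library labelled Kit-W/sh tumor 2, so its sign rests on 1 library. Across the panel 0% of 869 genes were called for this term by edgeR, with 63 at an unadjusted p under 0.05 and 1 called by DESeq2. Of the antiviral effectors, 11 of 12 had positive terms with a median of 1.01, against 0.002 for all genes, and none was called.

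Pathway genes that passed the stage test mostly fell in tumors. In Kit-B6, 41.1% of the 869 genes tested over the whole panel passed edgeR's adjusted p of 0.05 (193 higher, 164 lower). Of the 59 pathway genes tested, 28 passed, 26 lower and 2 higher in tumors. The median of the 59 was -0.69 against -0.003 for all genes. The lower ones included 10 of 12 antiviral effectors, such as Oas1g (-4.43 ± 0.43, SE, edgeR adjusted p = 3.351e-06), and 8 of 12 genes of MHC class I and peptide loading, such as B2m (-1.90 ± 0.27, SE, edgeR adjusted p = 8.379e-05). Irf9, the DNA-binding part of the complex that type I interferon activates, fell by 0.66 ± 0.17 (SE, edgeR adjusted p = 0.007259) and Pml by 0.76 ± 0.17 (SE, edgeR adjusted p = 0.002604). Tmem173, which encodes the adaptor STING, rose by 2.59 ± 0.39 (SE, edgeR adjusted p = 0.0001355), and the receptor chain Ifngr2 rose by 0.52 ± 0.16 (SE, edgeR adjusted p = 0.01811).

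In Kit-W/sh, 39.7% of the 869 genes tested over the whole panel passed (182 higher, 163 lower). Of the 59 pathway genes, 22 passed, 20 lower and 2 higher in tumors. They included 5 lower antiviral effectors, 7 lower genes of MHC class I and peptide loading, and the factors Irf2, Irf3 and Irf8 (-1.22 ± 0.36, SE, edgeR adjusted p = 0.01416). The higher ones were Tmem173 (2.67 ± 0.47, SE, edgeR adjusted p = 0.0006084) and the DNA-binding protein gene Ifi204 (1.47 ± 0.53, SE, edgeR adjusted p = 0.0379). Under reference scaling 15 pathway genes passed in Kit-B6 (2 higher, 13 lower) and 9 in Kit-W/sh (5 higher, 4 lower). Without Kit-W/sh preneoplastic sample 1 the Kit-W/sh count was 8, and 132 over the panel. Without the 2 tumor libraries that stood apart, 35 passed in Kit-B6 (4 higher, 31 lower) and 26 in Kit-W/sh (4 higher, 22 lower). Without Kit-B6 tumor 4 alone, 34 pathway and 425 panel genes passed in Kit-B6, and 26 and 385 in Kit-W/sh. The panel counts thus changed as well, and nothing about the pathway is read from these changes. The 2 comparisons share no library, but they share 1 estimate of spread. Summed markers of other cells also differed between the stages, although those of macrophages and monocytes, of stroma and of lymphocytes overlapped. Epithelial genes (4 of 9 listed measured) summed to 87961 to 179742 CPM in preneoplastic libraries and to 40275 to 83096 CPM in tumors, neutrophil genes to 6.21 to 15.1 CPM and 62.1 to 760.5 CPM, macrophage and monocyte genes (7 of 9) to 1176 to 1496 CPM and 1431 to 3890 CPM, and stromal genes (3 of 9) to 1661 to 3422 CPM and 2840 to 11388 CPM. B cell genes summed to 162 to 3138 CPM in preneoplastic libraries and to 19 to 913 CPM in tumors. T cell genes summed to 669.6 to 1884 CPM and 217 to 985 CPM, and cytotoxic lymphocyte genes to 296 to 587 CPM and 94.1 to 336 CPM. The part of all these cells in the stage values was not tested.

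Within the groups the genes varied together in a way that set Ifitm3 apart. Over the 17 libraries, after subtraction of each group's mean log2(CPM + 1), Irf7 and Sp100 had a Pearson correlation of 0.898 (Spearman 0.914), and 0.831 without Kit-B6 tumor 3 and the library labelled Kit-W/sh tumor 2, the 2 libraries farthest from the median. Irf7 and Gbp2b had 0.797, Sp100 and Gbp2b 0.820, and Irf1 and Irf7 0.633. Ifitm3 had negative values with each of the other 4, from -0.588 with Irf7 to -0.376 with Gbp2b. These are descriptions without a test, since the values share a library, its depth and its scaling, and 12 of the 17 libraries are tumors.

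**Figure D4:**
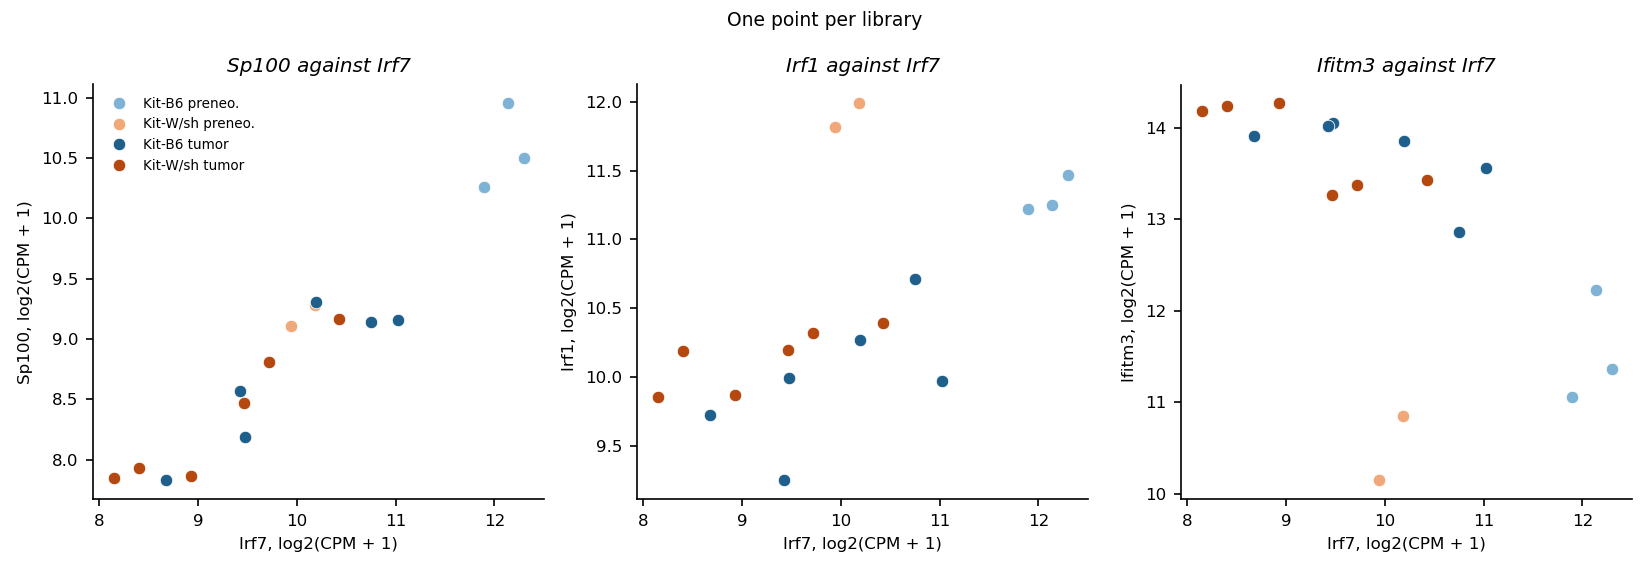
Levels of Sp100, Irf1 and Ifitm3 against Irf7 in the 17 libraries (both axes log2(CPM + 1), 1 point per library, coloured by group). Sp100 follows Irf7 across all groups, the 2 Kit-W/sh preneoplastic libraries stand above the other libraries of like Irf7 for Irf1, and among the tumors Ifitm3 is lower where Irf7 is higher, with both preneoplastic groups below them.

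By the same measure, the panel genes most like each member were named. Irf7 was followed most closely by Sp100, Oas1a (0.890) and the cytokine gene Il7 (0.877). Sp100 was followed by Zbp1, a sensor of Z-form nucleic acids (0.942, Spearman 0.978), and by Cd160 (0.917) and Irf7. Irf1 was followed by Wars (0.928), the tryptophanyl-tRNA synthetase, Casp1 (0.877) and Ifi30 (0.856), and these values were 0.778, 0.749 and 0.648 without Kit-B6 tumors 4 and 5. Gbp2b was followed by H2-K1 (0.876) and Gbp2 (0.851). Ifitm3 was followed by Batf (0.847), the neutrophil chemokine receptor gene Cxcr2 (0.842) and Tnfrsf9 (0.823). With the summed neutrophil genes, Ifitm3 had 0.674 and the other members negative values, from -0.774 (Irf1) to -0.446 (Gbp2b). With the summed macrophage and monocyte genes Ifitm3 had 0.641 and the others -0.628 (Irf1) to -0.338 (Sp100). With the summed epithelial genes Ifitm3 had -0.733 and the others 0.027 (Sp100) to 0.556 (Irf1, Spearman 0.316). Kit-B6 tumor 4, which stood apart by its epithelial genes, was not left out of these values.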

How the data were processed

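Total RNA of 17 colon samples was read by amplicon sequencing (QIAseq mouse immuno-oncology panel, MiSeq), according to the labels. The authors deposited whole-number counts per gene, 1 table per sample, with no statement of whether reads or molecular tags were counted. The submitters' processing notes name mm9 and DESeq2 with no role, and the aligner and counter are not given in the sources used here. Of 993 entries, 5 control amplicons, all at 0, were left out, and 22 genes had 0 counts in every library. Promoter coordinates are those of RefSeq on GRCm38.p6 and come from no deposited file.

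Counts were tested in R 4.3.3 with edgeR 4.0.16 (robust quasi-likelihood F test, two-sided, TMM scaling, filterByExpr with min.count 10 and min.total.count 15, Benjamini-Hochberg adjustment over all genes tested, threshold 0.05). Genotype comparisons were fitted within a stage, and stage comparisons and the interaction in 1 fit of 17 libraries. DESeq2 1.42.0, RLE factors, library totals, reference gene scaling, no filter, a replicate block, other sample sets and leaving out each library were the alternatives. The fits were tested on simulated data.

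The members and lists were chosen with earlier results of these data known. The genes named were the 5 members, pathway genes past the threshold or with the 6 smallest p-values, the 3 genes most like each member, and Kit and Cpa3. Values of some named genes are left out of the text. Pml and Gbp2 in the preneoplastic comparison were named for their relation to Sp100 and Gbp2b, after their values were seen. The labels do not say whether samples came from separate mice, and the p-values therefore speak only of the spread between the samples, which may be technical. All replicate pairs differed by more than counting noise (lowest chi-square per degree of freedom 13.03). Floors and intervals cover counting error only, since amplified reads are not independent molecules. Floors use unscaled totals.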

Additional observations from a re-analysis of the deposited data

Results flagged for a closer look

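Gbp2b was far from the other samples of its group in 2 libraries. It was at 22.5 CPM in Kit-B6 tumor 2, with the other 5 Kit-B6 tumors between 0 and 8.21 CPM, and it reached 16.2 CPM in 1 Kit-W/sh library, that labelled tumor 2, with the other 5 between 0 and 2.27 CPM. They rest on 16 and 21 counts. Among the tumors of each genotype, these libraries also had the highest B cell sums (913 and 133 CPM) and T cell sums (719.8 and 985 CPM), and the part of those cells was not tested. Of 10 gene and group pairs examined 2 stood out in this way, and chance alone marks about 1 in 20, a nominal rate that counts near 0 need not follow.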

How the results depend on the processing

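With 1 gene called in the preneoplastic genotype comparison, other settings gave 0 (library totals, the replicate block, and the fit of all 17 libraries), 26 (reference gene scaling), 21 (DESeq2) and 0 to 16 (leaving out 1 library, highest without Kit-B6 sample 1), and pathway calls were 6 (reference scaling), 7 (DESeq2) and 0 to 6 (leaving out 1 library). In tumors DESeq2 called 27 genes (20 higher in Kit-W/sh), and 15 were called (14 higher) without Kit-B6 tumor 4 and the library labelled Kit-W/sh tumor 2, a setting chosen after seeing the data. For the interaction, DESeq2 called 1 gene, a pathway gene, and leaving out 1 library gave 0 to 2 genes and 0 to 1 pathway genes. Pathway calls between stages were 15 in Kit-B6 and 9 in Kit-W/sh under reference scaling, and 21 to 34 and 8 to 26 when 1 library was left out, with 265 to 425 and 132 to 385 genes called. The causes of these changes were not tested.

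Outside the tumor genotype comparison, a gene value counted as moved where it shifted by more than the gene's within-group SD of log2 levels. By this rule Irf1 moved between stages in Kit-W/sh under reference scaling (-1.27, SD 0.34). Irf7 and Sp100 shifted there too, as given above, but within their SD (0.77 and 0.53), and the median of all genes went from 0.08 to 0.56. Gbp2b between stages in Kit-W/sh moved without those 2 tumors (-4.05), and ran from -4.05 to -1.80 without 1 library. Gbp2b between stages in Kit-B6 ran from -4.30 to -2.86 (lowest without Kit-B6 tumor 2). Ifitm3 was at -0.70 in preneoplastic colon and at 0.75 for the interaction without Kit-B6 preneoplastic sample 2. Leaving out 1 library took the Gbp2b interaction from -0.88 to 1.98, and in tumors Irf1 from -0.04 to 0.23 (negative without Kit-B6 tumor 5), Ifitm3 from -0.07 to 0.18, Irf7 from -1.11 to -0.49 (lowest adjusted p by edgeR 0.1885) and Sp100 from -0.58 to -0.26 (lowest 0.323).

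Same-numbered tumors of the 2 genotypes had correlations of their deviations from -0.195 to 0.390, and the other same-numbered samples from -0.138 to 0.395. Samples of unlike number were not compared, so these values cannot decide whether the replicate numbers pair samples. With the replicate block, 276 genes in Kit-B6 and 250 in Kit-W/sh were called between stages and 0 for either genotype comparison, and Irf7 in tumors was at -0.76 ± 0.48 (SE, edgeR adjusted p = 0.5547). Precision is limited by 2 Kit-W/sh preneoplastic libraries, and for Gbp2b by counts near the floor.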
